A study of Rattus norvegicus with 5 samples.

Results

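The genes described here encode a carrier of the vitamin A alcohol, retinol, inside the absorptive cell and enzymes that oxidize alcohols and aldehydes. They are *Rbp2*, *Adh1*, *Adh7*, *Aldh1a1*, *Aldh1a7* and *Aldh3a2*. These 6 genes were chosen by name, for their function, among 10412 genes that the array annotation names. Of them, 5 had a gene probe (an Affymetrix probe set), 1 each, and 4 of the 5 were among the 7933 of 15866 gene probes that were bright enough to keep. The array annotation pairs no gene probe with *Aldh1a7*, and *Adh1* was found under *Adh1c*, its current RefSeq symbol.

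Small intestine RNA came from male Wistar rats that were 6 weeks old at the start, were fed a powdered purified diet and were dissected after a 16 h fast. The groups were a control group on the full ration and caloric restriction (CR) groups given 5, 10, 20 or 30% less, all for 1 month. RNA of the 5 rats of a group was pooled and hybridized to 1 array, so each level is 1 pool of whole tissue with no replicate, which hides how single rats differ. The whole small intestine wall is a mixture of cells, and a lower signal from fewer cells of a type cannot be told apart from less RNA per cell.

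In the absorptive cell of the small intestine, the enterocyte, retinol from the diet and retinal cut from carotenoids are held by a cytosolic carrier, cellular retinol-binding protein II, which *Rbp2* encodes. Most retinol is then esterified and leaves in chylomicrons. A smaller part is oxidized, first to retinal by short-chain retinol dehydrogenases or by alcohol dehydrogenases such as those of *Adh1* (class I) and *Adh7* (class IV), and then to retinoic acid, the ligand of nuclear receptors, by retinaldehyde dehydrogenases such as that of *Aldh1a1*. *Aldh1a7* encodes an enzyme of rodents closely related to that of *Aldh1a1*. The product of *Aldh3a2*, fatty aldehyde dehydrogenase, acts on long-chain aldehydes from lipids, which it turns into fatty acids, and is best known for the human disorder that follows its loss, Sjögren-Larsson syndrome.

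The sequences just upstream of a transcript start of *Aldh3a2* and of *Rbp2* are shown. *Aldh3a2* had the largest absolute mean log2 ratio to the control array among the 4 kept genes. The *Rbp2* sequence held matches to known promoter motifs. Each is 250 bases that end at the transcript start in the RefSeq promoter table (GRCr8). The windows are chr8:107963292-107963541 on the plus strand for *Rbp2* and chr10:46448336-46448585 on the minus strand for *Aldh3a2*. The annotated genes span 107958670 to 107983850 for *Rbp2* and 46427789 to 46448449 for *Aldh3a2*. The *Rbp2* window thus lies inside its annotated gene, and the *Aldh3a2* window partly inside. Capitals mark matches on either strand to AGGTCA, the half-site of many nuclear receptors, and to TATAAA, the TATA box.
Rbp2: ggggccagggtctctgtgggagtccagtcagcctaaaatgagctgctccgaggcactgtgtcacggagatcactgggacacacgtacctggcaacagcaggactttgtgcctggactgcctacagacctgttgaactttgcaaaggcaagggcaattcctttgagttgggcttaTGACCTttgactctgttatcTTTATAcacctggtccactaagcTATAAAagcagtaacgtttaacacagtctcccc
Aldh3a2: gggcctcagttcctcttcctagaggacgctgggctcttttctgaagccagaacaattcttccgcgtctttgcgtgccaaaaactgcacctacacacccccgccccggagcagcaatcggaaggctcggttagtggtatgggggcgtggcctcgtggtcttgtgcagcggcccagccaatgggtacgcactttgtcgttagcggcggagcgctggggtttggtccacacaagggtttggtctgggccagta
The *Rbp2* window held 1 AGGTCA, read on the opposite strand and beginning 76 bases before the start, where it is part of AAAGGTCA. It also held 2 matches to TATAAA, beginning 33 and 56 bases before the start, the one farther away on the opposite strand. The *Aldh3a2* window held none of the 3 motifs, nor did the windows of *Adh1*, *Adh7* and *Aldh1a1*. Among 33469 rat promoter windows of the same length, 14.1% held AGGTCA, 1.24% held AAAGGTCA and 12.9% held TATAAA. The motifs were chosen after the sequences had been seen, and a match is a run of letters, not a bound site.

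All values are MAS5 signals, an intensity on a linear scale that the authors scaled to the same trimmed mean on each array, 132. Array medians lay between 44.9 and 49.0, and the correlation between arrays across gene probes was 0.931 to 0.952. RNA integrity was followed by the signal ratio of the 3' to the 5' end of beta-actin, which lay between 2.20 and 2.41 except at 20% CR, where it was 3.18. The same ratio of *Gapdh*, a glycolytic enzyme, was 1.4 in the control pool, 1.32 at 5% CR, 1.37 at 10% CR, 1.27 at 20% CR and 1.21 at 30% CR, so it was not raised at 20% CR. A gene probe was kept where its mean log2 signal was at least 5.54, a signal of 46.5. Signals of different gene probes depend on their sequences, so levels were compared between arrays and not between genes.

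*Rbp2* gave a signal of 4553 on the control array, 3733 at 5% CR, 4519 at 10% CR, 4475 at 20% CR and 3847 at 30% CR. The pools at 10 and 20% CR lay close to the control pool, and those at 5 and 30% CR lay below it. The log2 ratios to the control array were -0.29, -0.01, -0.03 and -0.24 at 5, 10, 20 and 30% CR, and the mean signal was 4143 ± 411 over the CR pools (SD, n = 4 levels) against 4553 in the single control pool. All 4 ratios were below 0, as for 20.6% of the kept gene probes, but after median centring the ratio at 20% CR was 0.04. After quantile normalization the ratios were -0.24, -0.11, -0.24 and -0.25, with the 20% pool as far below the control pool as the 5% pool. The mean log2 ratio was -0.14, with an unadjusted 95% interval of -0.48 to 0.20 (limma, adjusted p = 0.988). That interval holds differences in either direction, so these arrays did not settle a direction.

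*Adh1*, the class I alcohol dehydrogenase that oxidizes ethanol as well as retinol, gave a signal of 4147 on the control array, 4306 at 5% CR, 4444 at 10% CR, 5152 at 20% CR and 4132 at 30% CR. The pool at 20% CR was the highest, and the pool at 30% CR was level with the control pool. Its log2 ratios were 0.05, 0.10, 0.31 and -0.01, and it averaged 4509 ± 448 over the CR pools (SD, n = 4 levels) against 4147 in the control pool. The mean log2 ratio was 0.12 with a 95% interval of -0.22 to 0.45 (limma, adjusted p = 0.988). After quantile normalization the ratio at 20% CR was 0.09 in place of 0.31, the highest array was that at 5% CR, and the mean log2 ratio was 0.049. Without the 20% pool the mean log2 ratio was 0.050.

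*Adh7*, the class IV enzyme of the upper digestive tract, was weak on every array, with signals of 8.3 on the control array, 7.9 at 5% CR, 7.4 at 10% CR, 1.3 at 20% CR and 1.2 at 30% CR. All 5 lay below the level for keeping a gene probe and below the 25th percentile of their own array, where the subtraction of mismatch signals makes ratios unstable. No fold change is given for it, and it entered neither test.

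*Aldh1a1*, which turns retinal into retinoic acid, gave a signal of 451.8 on the control array, 419.4 at 5% CR, 418.6 at 10% CR, 500.8 at 20% CR and 477.2 at 30% CR. It was below the control pool at both mild levels and above it at both stronger levels. The log2 ratios were -0.11, -0.11, 0.15 and 0.08, and the CR pools averaged 454.0 ± 41.6 (SD, n = 4 levels) against 451.8 in the control pool. The mean log2 ratio was 0.0025 with a 95% interval of -0.35 to 0.35 (limma, adjusted p = 0.998). Whether this gene probe also detects RNA of the related *Aldh1a7* was not tested.

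*Aldh3a2* gave a signal of 708.4 on the control array, 903.3 at 5% CR, 895.7 at 10% CR, 1013 at 20% CR and 1046 at 30% CR. All 4 CR pools were above the control pool, and the pools at 20 and 30% CR were above those at 5 and 10% CR. These signals were 27.5, 26.4, 43.0 and 47.7% above that of the control array, or log2 ratios of 0.35, 0.34, 0.52 and 0.56. The CR pools averaged 964.6 ± 76.4 (SD, n = 4 levels) against 708.4 in the control pool, and the mean log2 ratio was 0.44 ± 0.14 (SE), a fold of 1.36 with a 95% interval of 1.09 to 1.70. In limma over all kept gene probes this did not pass (adjusted p = 0.974, unadjusted p = 0.0118). *Aldh3a2* was above the control array at all 4 levels under each of the 3 other scalings and constants tried, with a lowest ratio of 0.28 at 10% CR after median centring.

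**Figure D1:**
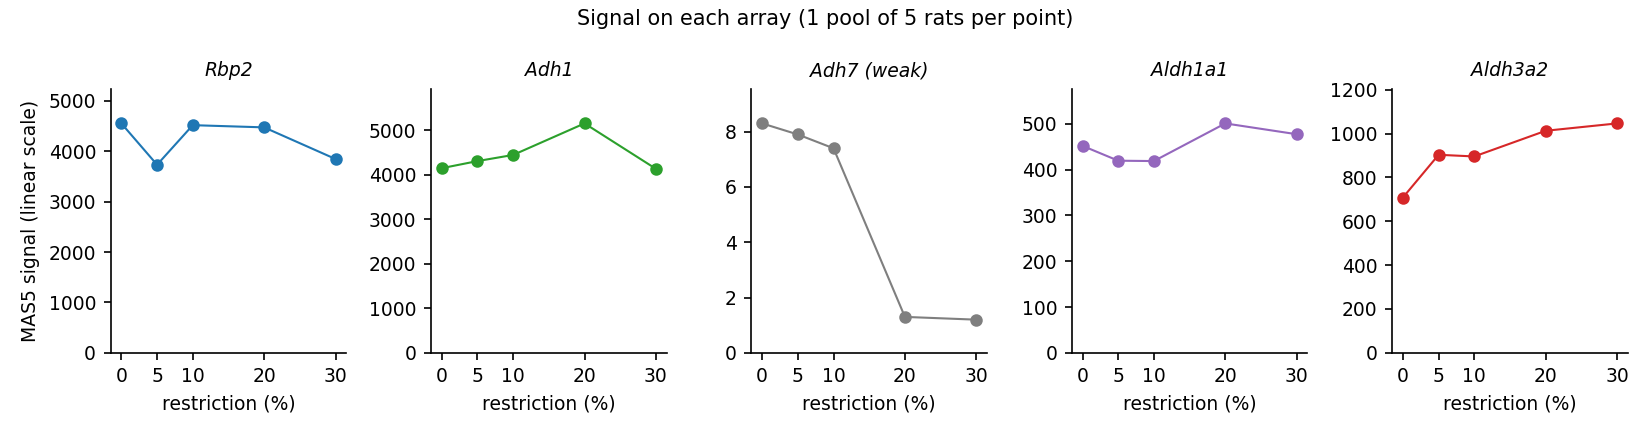
MAS5 signal (vertical axis, linear from 0, a scale of its own in each panel) against the restriction in percent (horizontal axis, 0 is the control) for the 5 genes with a gene probe, 1 point per array. The 4 CR points of *Aldh3a2* lie between 895.7 and 1046, above the control point at 708.4, and *Adh7* stays at 8.3 or less.

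No kept gene probe passed limma at an adjusted p of 0.05 in the comparison of the CR pools with the control pool (0% of 7933), so none of the 4 measured genes did. At an unadjusted p of 0.05, 215 gene probes were higher in the CR pools (2.71%) and 163 lower (2.05%). *Aldh3a2* was among the higher ones, and none of the 4 was among the lower ones. In this fit the CR levels stand in for replicates, which leaves 3 residual degrees of freedom, and the spread of the control level is taken to be the same as theirs.

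The linear trend asked whether signals followed the graded restriction, and it likewise passed the adjusted threshold for 0% of the kept gene probes. At an unadjusted p of 0.05, 123 gene probes had a positive slope (1.55%) and 122 a negative one (1.54%). *Aldh3a2* had a slope of 0.16 ± 0.05 (SE, log2 per 10% restriction, 95% interval 0.04 to 0.28; limma adjusted p = 0.998, unadjusted p = 0.0136). Without the control pool its slope was 0.10 with an unadjusted p of 0.201. The slopes of *Rbp2*, *Adh1* and *Aldh1a1* were -0.03, 0.02 and 0.06, each with an interval that includes 0.

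By size, no measured gene reached a log2 ratio of 0.5 in the same direction at all 4 levels, a size at which 0.769% of kept gene probes were higher and 0.34% lower. None reached a log2 ratio of 1 at any level, which 2.45% did. At a size of 0.3, *Aldh3a2* was higher at every level, as were 2.48% of kept gene probes. It was the only one of the 4 above 0 at every level, which held for 19% of them.

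**Figure D2:**
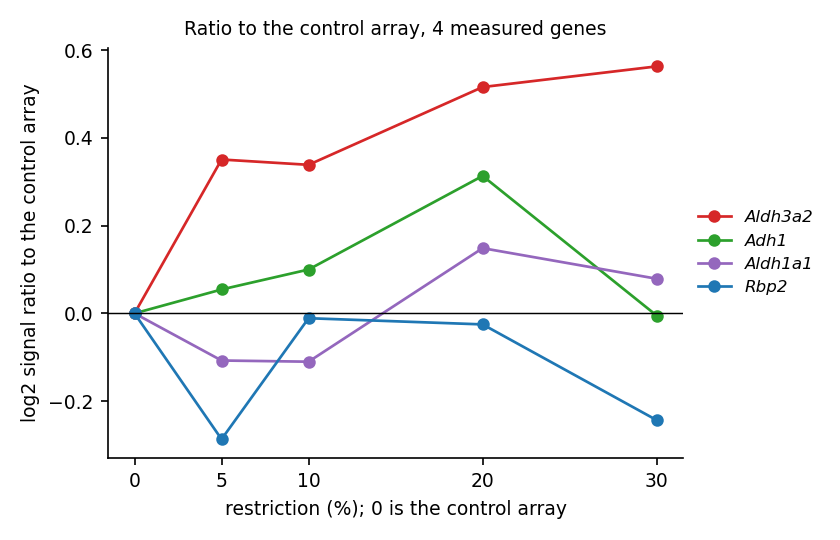
Log2 signal ratio to the control array (vertical axis) against the restriction in percent (horizontal axis) for the 4 kept genes, 1 point per array and the control array at 0. *Aldh3a2* runs between 0.34 and 0.56 at the CR levels, and the other genes stay between -0.29 and 0.31.

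Across all kept gene probes the median of the mean log2 ratio was -0.0057, and the median of its absolute size was 0.14. *Aldh3a2*, at 0.44, lay in the upper tail, with 311 gene probes (3.92%) at least as high. *Rbp2* at -0.14 and *Adh1* at 0.12 had about the size of the median gene probe, and *Aldh1a1* lay near 0. The range over the 5 arrays was 0.56 for *Aldh3a2*, 0.29 for *Rbp2*, 0.32 for *Adh1* and 0.26 for *Aldh1a1*, against a median of 0.43 over the kept gene probes.

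**Figure D3:**
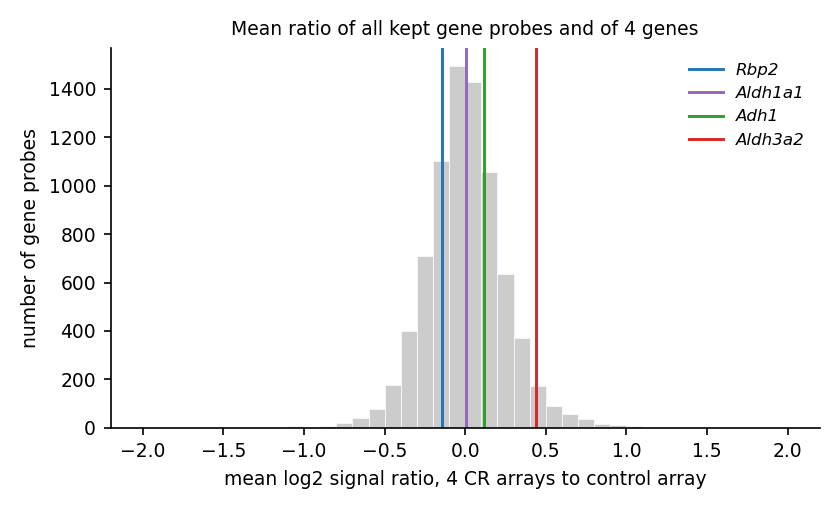
Number of kept gene probes (vertical axis) by mean log2 signal ratio of the 4 CR arrays to the control array (horizontal axis, bins of 0.1), with a coloured line at each of the 4 measured genes. The line of *Aldh3a2* stands at 0.44, in the upper tail, and those of *Rbp2*, *Aldh1a1* and *Adh1* stand at -0.14, 0.0025 and 0.12, in the body.

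Differences between genes on the same array do not depend on scaling by a constant, but quantile normalization changes them. The log2 ratio of *Aldh3a2* exceeded that of *Aldh1a1* by 0.46, 0.45, 0.37 and 0.48 at 5, 10, 20 and 30% CR, a mean of 0.44 ± 0.05 (SD, n = 4 levels). It exceeded that of *Rbp2* by 0.64, 0.35, 0.54 and 0.81 (0.58 ± 0.19) and that of *Adh1* by 0.30, 0.24, 0.20 and 0.57 (0.33 ± 0.17). After quantile normalization *Aldh3a2* exceeded *Rbp2* by 0.59, 0.46, 0.71 and 0.81 and *Adh1* by 0.24, 0.34, 0.38 and 0.57, and the differences from *Aldh1a1* were 0.33 to 0.45. Both aldehyde dehydrogenases thus parted by nearly the same amount at each level, while *Adh1* was above *Rbp2* by 0.34, 0.11, 0.34 and 0.24. All of these differences share the 1 control array, and they were not tested.

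The genes with ratio profiles closest to each measured gene were found by the root mean square difference over the 4 CR levels, among 6898 kept gene probes with 1 gene name. *Sp110* (0.02), *B3gnt2* (0.03) and *Ubxn1* (0.03) were closest to *Rbp2*. *Eef1akmt1* (0.02), *Gpx4* (0.02) and *Pef1* (0.03) were closest to *Adh1*. *Mtch2* (0.03), *Rbl2* (0.03) and *Tmem30a* (0.04) were closest to *Aldh1a1*. For these 3 genes 223, 191 and 208 gene probes lay within 0.1. *Aldh3a2* had 11 within 0.1, fewer than any of the other 3 genes, with *Tmem100* (0.07), *Rnf213* (0.07) and *Mocs2* (0.07) the closest. Few gene probes had a mean ratio that high (3.92% at least as high), so this low count partly restates its mean ratio. A likeness over 4 values that share a control array is a description.

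The wider pathways were covered by 6 lists of 87 further genes, of which 63 had a gene probe and 34 were kept. Their median mean log2 ratio was 0.03, against -0.0057 over all kept gene probes. The mean ratio was above 0 for 20 of them and below 0 for 14, and it was above 0 for 49.1% of all kept gene probes. In neither comparison did any of the 34 pass limma after adjustment over all kept gene probes. At an unadjusted p of 0.05, 2 were higher in the CR pools and 0 were lower (2.71 and 2.05% over all kept gene probes). At the same threshold 1 had a positive slope (1.55% over all), so the count for the trend was near the background.

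Of 18 retinol dehydrogenases and retinal reductases, which interconvert retinol and retinal, 7 were kept and 6 of the 7 had a positive mean ratio (median 0.12). *Hsd17b6*, a short-chain dehydrogenase of hydroxysteroids, gave a signal of 345.7 on the control array, 542.2 at 5% CR, 449.8 at 10% CR, 547.3 at 20% CR and 554.7 at 30% CR. All 4 CR pools were above the control pool, by log2 ratios of 0.65, 0.38, 0.66 and 0.68, a mean of 0.59 ± 0.16 (SE; limma adjusted p = 0.756, unadjusted p = 0.00398). Its slope was 0.17 ± 0.07 (SE, log2 per 10% restriction; limma adjusted p = 0.998, unadjusted p = 0.0432). *Rdh10*, which makes retinal from retinol, had a mean log2 ratio of 0.29, and *Rdh11*, a retinal reductase, one of 0.26. Both were above the control array at every level, with weak signals of 84.2 to 117.8 for *Rdh10* and 87.7 to 107.5 for *Rdh11*.

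Of 18 genes of carotenoid and retinyl ester handling, 6 were kept, 3 with a positive and 3 with a negative mean ratio (median 0.0097). *Cd36*, a membrane receptor for long-chain fatty acids, gave a signal of 113.4 on the control array, 194.4 at 5% CR, 161.7 at 10% CR, 130.3 at 20% CR and 201.0 at 30% CR. Every CR pool was above the control pool, with a mean log2 ratio of 0.58 ± 0.24 (SE; limma adjusted p = 0.988, unadjusted p = 0.0382). *Bco1*, which cleaves beta-carotene into retinal, gave 590.8 on the control array, 576.4 at 5% CR, 388.9 at 10% CR, 606.2 at 20% CR and 433.2 at 30% CR. It was low at 10 and 30% CR and near the control at 5 and 20% CR. *Dgat1*, which can esterify retinol as well as diacylglycerol, had a mean log2 ratio of 0.04. *Lrat*, the main retinol-esterifying enzyme, lay below the filter with signals of 20.0 to 33.8.

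Of 9 retinoid carriers other than *Rbp2*, 7 had a gene probe and 1 was kept, *Fabp5*, a fatty acid-binding protein, with a mean log2 ratio of -0.16. Of 15 genes for retinoic acid synthesis, breakdown and reception, 5 were kept, 2 with a positive and 3 with a negative mean ratio (median -0.08). *Rxrb*, a retinoid X receptor, had log2 ratios of -0.64, -0.34, -0.13 and -0.62 at signals of 51.0 to 79.5, just above the filter. *Rara*, a retinoic acid receptor, had a mean log2 ratio of -0.13 but one of -0.86 at 20% CR. That ratio rests on weak signals, 53.1 on the control array and 29.2 at 20% CR, the latter below the filter level of 46.5. *Ncor1*, a corepressor, had a mean log2 ratio of 0.19.

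Of 10 other alcohol-oxidizing enzymes, 5 were kept and all 5 had a positive mean ratio (median 0.09). *Adh5*, the class III enzyme that clears formaldehyde, had log2 ratios of 0.30, 0.03, 0.22 and 0.23, and *Adh4*, the class II enzyme, had 0.38, 0.33, 0.18 and -0.0043. *Cat*, which encodes catalase, had a mean log2 ratio of 0.09. Of 17 other genes of aldehyde oxidation and acetate use, 10 were kept, 4 with a positive and 6 with a negative mean ratio (median -0.06). *Aldh4a1*, of proline breakdown, had log2 ratios of 0.26, 0.46, 1.01 and -0.28, so its direction was not the same at every level. *Aldh7a1*, of lysine breakdown, had a mean log2 ratio of -0.20, and *Aldh1l1*, a folate enzyme, also -0.20. The largest positive mean ratio among the kept aldehyde dehydrogenases was that of *Aldh3a2*.

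**Figure D4:**
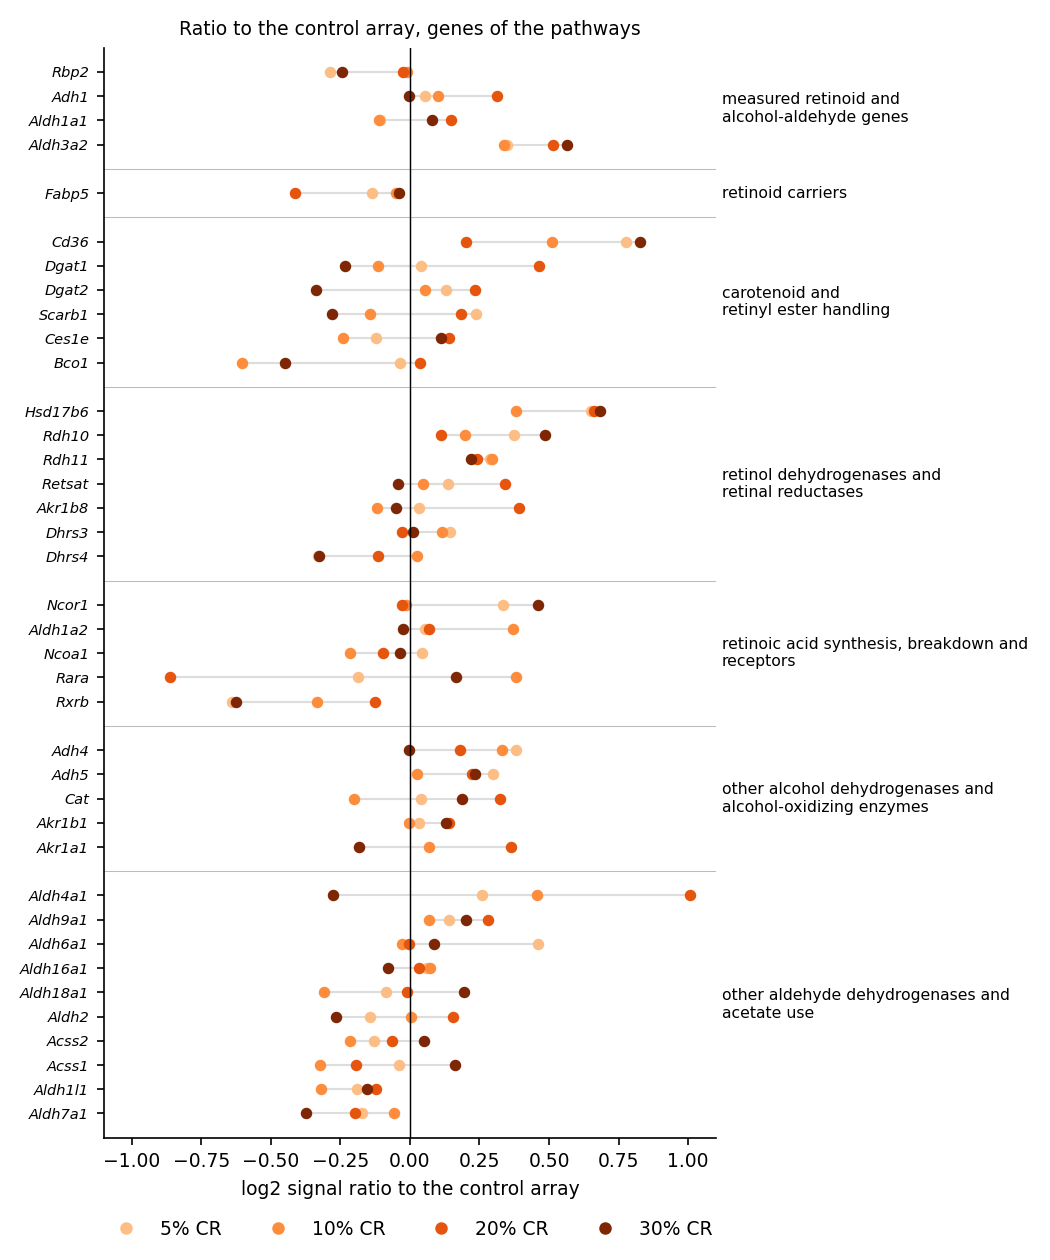
Log2 signal ratio to the control array (horizontal axis) for the 4 measured genes and the 34 kept genes of the 6 pathway lists (rows), 1 point per CR level. *Aldh3a2*, *Hsd17b6* and *Cd36* have all 4 points right of 0, and *Rxrb* has all 4 left of it.

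The labelled tissue matched its markers, since all 18 enterocyte markers with a gene probe were kept, while 0 of 11 liver markers and 1 of 11 stomach markers were. The summed signal of the enterocyte markers was 23320, 21980, 30630 and 22780 at 5, 10, 20 and 30% CR, against 21240 on the control array. It was highest at 20% CR, the array on which *Adh1* and *Aldh1a1* were highest and the 3' to 5' ratio of beta-actin was largest. The part of these values in the results for both genes was not tested. Like *Aldh3a2*, the enterocyte sum was above the control array on all 4 CR arrays, and its part in that result was not tested. Of the 18 enterocyte markers, 12 had a positive mean ratio and 6 a negative one. Their median log2 ratio was 0.04, -0.13, 0.42 and 0.07 at 5, 10, 20 and 30% CR, so it was below 0 at 10% CR. *Fabp1* gave 4065 on the control array and 5205 to 6468 on the CR arrays, and *Fabp2* gave 983.8 and 1806 to 2383. These bright markers carried much of the excess of the sum at 5, 10 and 30% CR. The 3' to 5' ratio of *Gapdh* was lower on all 4 CR arrays than on the control array, and the 5 arrays stood in the reverse of their order for *Aldh3a2*. The part of RNA quality in the *Aldh3a2* result was not tested.

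Exocrine pancreas markers, a tissue that adjoins the duodenum, had summed signals of 380.3, 327.7, 297.7 and 269.1 at 5, 10, 20 and 30% CR, against 874.2 on the control array, with 11 of 14 having a gene probe and 1 kept. This sum moved opposite to *Aldh3a2*, being lower on all 4 CR arrays, and its part in that result was not tested. Smooth muscle markers (10 of 10 kept) summed to between 9572 and 13500 on the CR arrays and to 12220 on the control array. Goblet and Paneth cell markers (8 kept) summed to between 16430 and 19780 on the CR arrays and to 18810 on the control array, and immune cell markers (6 kept) to between 5248 and 6541 and to 5608. Proximal intestine markers (9 of 9 kept) summed to between 2469 and 2871 on the CR arrays and to 2742 on the control array, and 3 of the 9 had a negative slope at an unadjusted p of 0.05, against 1.54% of all kept gene probes. These were *Pdx1*, a duodenal transcription factor (slope -0.18 log2 per 10% restriction), *Cybrd1*, a duodenal ferric reductase (-0.19), and *Slc46a1*, a folate transporter (-0.33, with its low signal at 30% CR), each with a limma adjusted p of 0.998. The slopes of these 3 ran opposite to that of *Aldh3a2*, and their part in that result was not tested. Of the other proximal markers, *Gata4*, *Gip*, *Onecut2* and *Cck* had slopes of 0.0054, 0.012, 0.029 and 0.046. *Sct* and *Slc40a1* had slopes of -0.021 and -0.12. Of 6 distal markers 0 were kept, their sums being 59.8 to 77.4 on the CR arrays and 45.5 on the control array. No marker of these lists had a signal under 1 on all arrays.

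**Figure D5:**
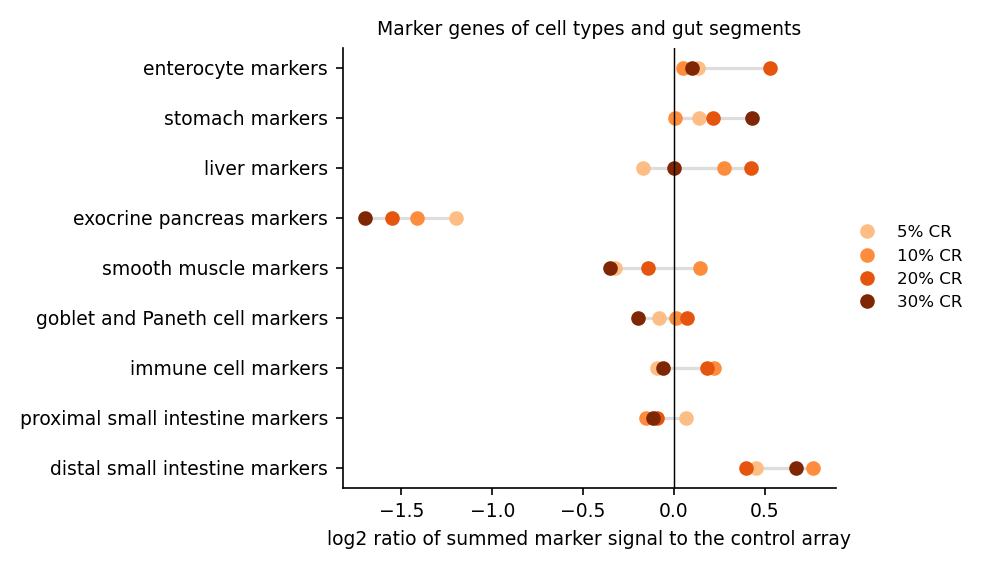
Log2 ratio of the summed marker signal of each CR array to the control array (horizontal axis) for each marker list (rows), 1 point per CR level. The exocrine pancreas sum is below the control array at every level and the enterocyte sum is farthest above it at 20% CR.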

How the data were processed

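Small intestine RNA of 5 pools, 1 per restriction level, was measured on 1 array each. The deposited values are MAS5 signals (intensity), computed and scaled by the authors to a common trimmed mean whose target value the sources used here do not give. MAS5 subtracts mismatch signal, so weak values vary widely, and the scaling removes differences in total RNA. Values under 0.1 were set to 0.1 before log2. Without the 57 array controls, the brighter gene probes were kept, split at the median of their mean log2 signal. Of 15866 gene probes, 12783 carried 1 gene name, 312 several and 2771 none. A contrast of the CR pools with the control pool and a slope over the restriction percent were each fitted in limma 3.58.1 (R 4.3.3; lmFit and eBayes, trend = TRUE). Two-sided p-values were adjusted by Benjamini-Hochberg over all kept gene probes, with 0.05 as the threshold. Both fits were tested on simulated data. Pools of different levels are not replicates. The p-values set the contrast against the spread between CR levels, and the slope against departures from a line through all 5 pools. Both spreads are moderated by eBayes with those of the other gene probes. A list gene is represented by its brightest gene probe with 1 name. Named genes were all members of the gene set and the 3 nearest profiles of each kept member. Up to 3 kept genes per pathway list, those with the largest absolute mean ratio, were also named. *Lrat*, *Aldh3a1*, the proximal markers and the enzymes neighbouring the set in the genome were added after their values were seen. The members and lists were chosen with earlier results of these data known. Other settings tried were an added constant, median centring, quantile normalization, other filters and sizes, and leaving out each pool. Precision is limited by the number of arrays.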

Additional observations from a re-analysis of the deposited data

How the results depend on the processing

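Of 88 refits of the mean ratios and slopes of the 4 measured genes, 82 kept direction and side of the threshold, and the other 6 reversed. Refits with no filter, a stricter filter or no intensity trend in eBayes leave each mean ratio and slope unchanged. Those refits could not reverse, so the 82 overstate how far direction was tried. No main fit of these genes passed the threshold. The slope of *Adh1* was -0.0078 after quantile normalization and lay between -0.011 and 0.16 with 1 pool left out (-0.0036 without the control pool, -0.011 without the 20% pool). The mean ratio of *Aldh1a1* lay between -0.046 and 0.040 with 1 pool left out (-0.046 without the 20% pool, -0.023 without the 30% pool), and the slope of *Rbp2* between -0.074 and 0.036 (0.036 without the 30% pool). The mean ratio of *Adh1* lay between 0.049 (quantile normalization) and 0.16 over 10 alternatives, with 0.050 without the 20% pool. The mean ratio of *Aldh3a2* stayed between 0.40 and 0.48 over 10 alternatives (adjusted p 0.445 to 1) and its slope between 0.10 and 0.22 over 12 (adjusted p 0.726 to 1).

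Gene probes higher in the CR pools at an adjusted p of 0.05 numbered 0 to 3 with 1 pool left out, 3 without the 30% pool. Gene probes higher by a log2 ratio of 0.5 at all levels numbered 61, but 37 with an added constant of 13, 693 without a filter, 16 with a stricter filter, 197 at a size of 0.3, 10 at a size of 1 and 68 to 117 with 1 pool left out. Those lower numbered 27, but 443 without a filter, 6 with the stricter filter, 147 at 0.3, 1 at 1 and 40 to 60 with 1 pool left out. At 0.3, 1 measured gene was higher at all levels, and at a size of 0.5 at a single level, 1 passed. The count at an unadjusted p of 0.05, 378 in the comparison with the control pool, was 806 without a filter, 164 with the stricter filter, 237 without the 5% pool and 674 without the 20% pool. In the trend it was 245, against 582, 128, 77 without the control pool, and 459, 497 and 504 without the 5, 20 and 30% pools. Except where the filter or the size sets the count, the cause was not tested.

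With 1 array per level, the residual spread comes from the CR levels in the contrast. In the slope it comes from departures of the pools from a line. In both fits eBayes moderates this spread with that of the other gene probes. The control pool enters every ratio. No paired analysis was possible because each pool held different rats and each level had 1 array.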

Other observations

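Several genes lie next to each other in the current rat gene table (GRCr8, used here for order alone). *Adh1* and *Adh7* belong to 1 cluster with *Adh4* and *Adh5*, and the signals of *Adh5* were 528.6 on the control array, 650.1 at 5% CR, 538.1 at 10% CR, 616.3 at 20% CR and 621.6 at 30% CR. *Adh4* gave 67.5, 88.0, 84.9, 76.4 and 67.3 in the same order, so it was above the control array at 5, 10 and 20% CR and level with it at 30% CR. *Adh7*, within the same cluster, had no signal above 8.3. *Aldh3a1*, which encodes a cytosolic aldehyde dehydrogenase of the cornea and stomach and neighbours *Aldh3a2*, gave signals of 8.9 on the control array, 1.4 at 5% CR, 2.3 at 10% CR, 16.1 at 20% CR and 7.9 at 30% CR, all below the filter.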
